A study of Homo sapiens with 4 samples.

Results

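The 36 genes described here encode integrin alpha chains (18 genes), integrin beta chains (8 genes) and laminin chains (10 genes), out of 20033 protein-coding genes of GENCODE release 44. They were taken by name, and all were found in the annotation. For each gene, the peaks of all 4 deposited lists that overlap the gene span widened by 10 kb were collected. A peak was called a promoter peak when it lay within 3 kb of any annotated transcription start site (TSS) of the gene, a gene body peak when it lay elsewhere in the span, and a flank peak otherwise.

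Chromatin of MDA-MB-231 cells, a line from a human breast cancer, was immunoprecipitated with an antibody to GFP and sequenced. Cells carried a bacterial artificial chromosome with either Smad2 or Smad3 tagged at the C-terminus with LAP, a tag that contains GFP, and the untagged Smads of the cells were still present. Each tagged line was a stably transfected population kept under Geneticin selection and sorted for GFP. The 4 conditions were LAP-Smad2 and LAP-Smad3 cells, each untreated or treated with 10 ng/mL TGFβ-1 for 2 h, with 1 library per condition. No condition has a second library to check a difference against, so that no test was run and no p-value is given. The 95% Wilson intervals beside shares of peaks cover counting error only. The lists hold no read totals and no transcript levels, so that the depth of each library is unknown and the expression of these genes in MDA-MB-231 was not measured. Each of the untreated lists was deposited under a name with the other Smad than its sample label has. The labels are used here ("the library labelled"), and no effect of TGFβ-1 is read from either untreated library. Differences between untreated and treated counts appear only as values by label, beside those with the untreated pair exchanged.

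Integrins are cell surface receptors made of an alpha and a beta chain, which bind collagens, laminins, fibronectin or other cells and connect them to the actin cytoskeleton. Laminins are trimers of an alpha, a beta and a gamma chain and are the main glycoproteins of basement membranes, the sheets on which epithelia rest. TGFβ binds receptor kinases that phosphorylate Smad2 and Smad3, which then enter the nucleus with Smad4 and bind DNA, and adhesion and matrix genes are a well known class of TGFβ-regulated genes. Some integrins also act upstream of the pathway, since those containing the beta chains ITGB6 or ITGB8 release TGFβ from its latent complex.

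After TGFβ-1, 143 LAP-Smad3 peaks lay at 33 of the 36 genes, and 37 LAP-Smad2 peaks lay at 19 of them. The Smad3 list holds 62551 peaks and the Smad2 list 26828, so that the counts cannot be set against each other directly. A peak was found at 91.7% of these genes in the Smad3 TGFβ-1 list, beside 74.3% of all protein-coding genes, and at 52.8% in the Smad2 TGFβ-1 list, beside 55.9%. Promoter peaks were found at 25 genes (69.4%, beside 40.2% of all protein-coding genes) for Smad3 and at 15 genes (41.7%, beside 35.4%) for Smad2. Gene body peaks were found at 21 genes for Smad3 (58.3%, beside 39.2%) and at 9 genes for Smad2 (25.0%, beside 20.9%). In the Smad3 TGFβ-1 list, 54 of the 143 peaks were promoter peaks, 68 were gene body peaks and 21 were flank peaks. In the Smad2 TGFβ-1 list, 19 of 37 were promoter peaks, 12 were gene body peaks and 6 were flank peaks. In the libraries labelled LAP-Smad2 untreated and LAP-Smad3 untreated, 15 peaks lay at 10 genes (27.8%, beside 22.0%) and 4 peaks at 4 genes (11.1%, beside 9.14%). Promoter peaks were found there at 3 genes (8.33%, beside 5.66%) and at 2 genes (5.56%, beside 4.90%).

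**Figure D1:**
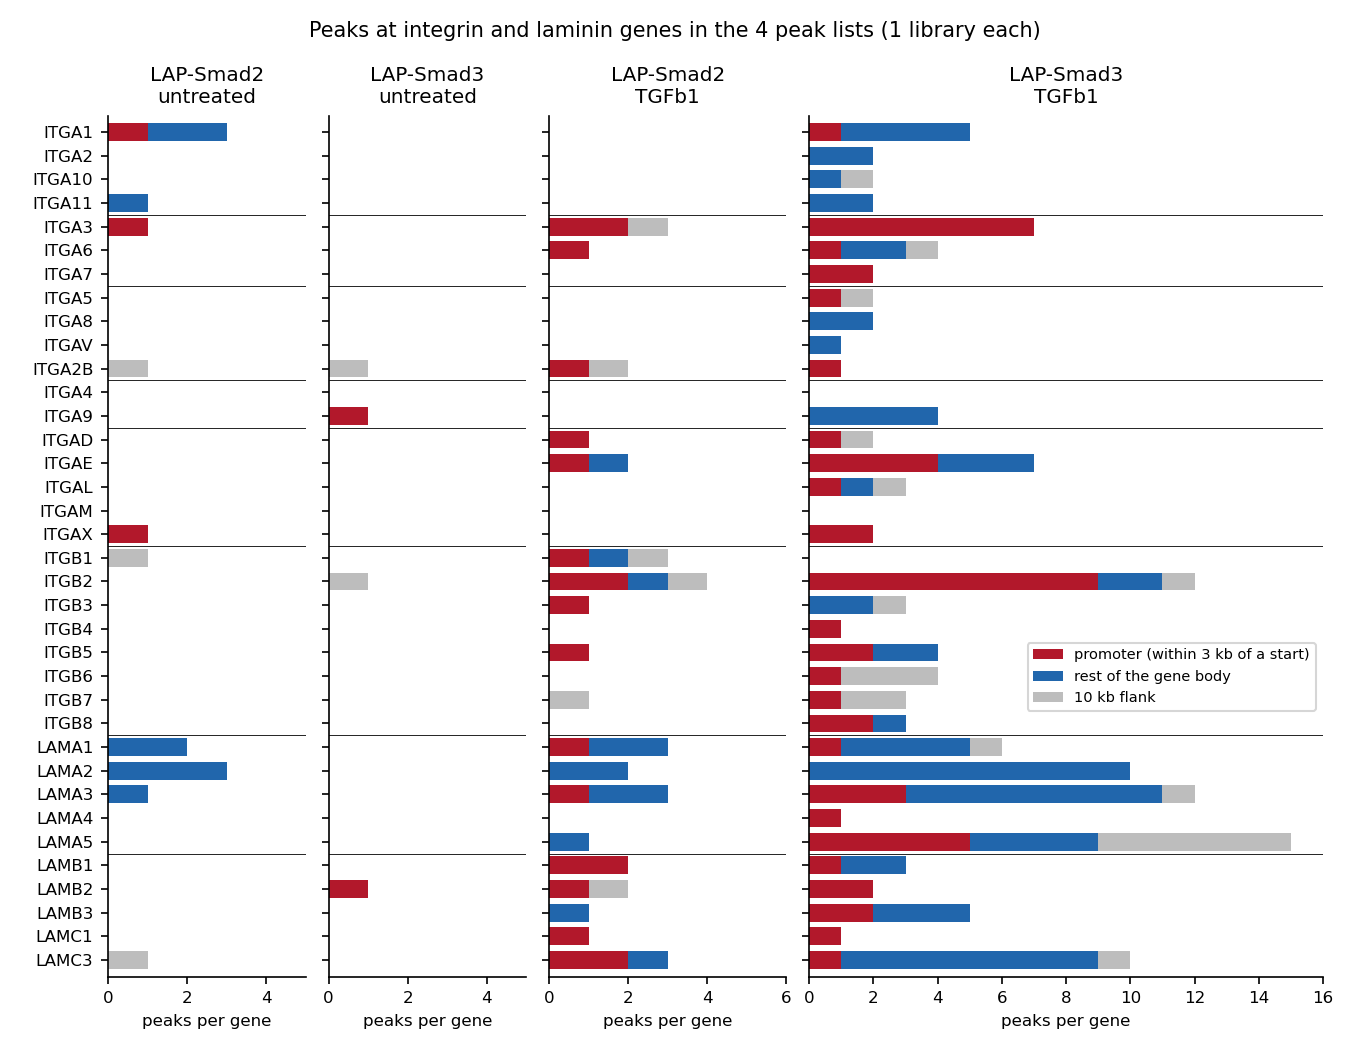
Number of peaks at each of the 36 genes in the 4 lists, with genes grouped by role, 1 library per list and bars (peaks per gene) split into promoter, gene body and flank peaks. LAMA5 had 15 Smad3 peaks after TGFβ-1, ITGB2 and LAMA3 had 12 each, and ITGA4 and ITGAM had none in any list.

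These genes are longer than most and have more annotated starts, both of which leave more room for a peak. Their median span was 80.6 kb, beside 27.5 kb for all protein-coding genes, and 14 of the 36 belonged to the longest 2 of 10 length classes of equal size. They had a median of 9.5 distinct starts, beside 5, so that the median length within 3 kb of a start was 25.9 kb, beside 12.1 kb. From the share of all protein-coding genes with a peak in each length class, 30.0 of the 36 genes would have a Smad3 TGFβ-1 peak and 23.2 a Smad2 TGFβ-1 peak, beside the observed 33 and 19. For promoter peaks, length gave 15.6 genes for Smad3 and 14.8 for Smad2, beside the observed 25 and 15. For gene body peaks, length gave 21.9 genes for Smad3 and 12.2 for Smad2, beside the observed 21 and 9, so that neither count stood above it. When genes were ordered by the length of sequence within 3 kb of their starts instead, the promoter numbers were 18.9 for Smad3 and 16.2 for Smad2. The Smad3 promoter count therefore stood above both of its numbers and the Smad2 promoter count near both. Per 100 kb of widened span, these genes held 3.12 Smad3 TGFβ-1 peaks, beside 2.86 at all protein-coding genes, and 0.808 Smad2 TGFβ-1 peaks, beside 1.28.

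The Smad3 count stood less far above all genes when only 1 start per gene was counted. Within 3 kb of the MANE Select start, the start of the 1 transcript per gene that GENCODE marks as representative, 12 genes had a Smad3 TGFβ-1 peak (33.3%, beside 25.1% of all protein-coding genes). They were ITGA3, ITGA6, ITGAE, ITGAX, ITGB2, ITGB4, ITGB5, ITGB8, LAMA5, LAMB1, LAMB2 and LAMB3. Smad2 TGFβ-1 peaks were found there at 10 genes (27.8%, beside 28.5%), which were ITGA3, ITGA6, ITGB1, ITGB2, ITGB3, LAMA1, LAMA3, LAMB1, LAMB2 and LAMC1. Some promoter peaks also belonged to a neighbour, as 18 of the 54 Smad3 and 10 of the 19 Smad2 promoter peaks lay within 3 kb of a start of another gene.

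At equal list length, the count of genes with any Smad3 peak lay below or above the number from length, depending on tied peaks, and the promoter count lay above it in either case. The strongest Smad3 TGFβ-1 peaks by −log10 q were kept down to the length of the Smad2 list, where 4470 peaks are tied at a −log10 q of 4.72. With the tied peaks left out, 18 of the 36 genes had a Smad3 peak (45.7% of all protein-coding genes, 20.0 genes from length), and 12 had a promoter peak (19.0% of all protein-coding genes, 7.50 from length and 9.69 from the sequence near starts). With the tied peaks kept, 24 genes had a peak (50% of all protein-coding genes, 21.6 from length), and 15 had a promoter peak (21.7%, 8.64 from length and 11.0 from the sequence near starts). Peaks whose 200 bp window has a near-identical copy elsewhere in the genome were rarer at these genes than in the whole lists. Such peaks made up 37.7% of the Smad2 and 41.9% of the Smad3 TGFβ-1 list, but 26.5% and 32.9% at all protein-coding genes. Without such peaks, 31 genes had a Smad3 TGFβ-1 peak (62.5% of all protein-coding genes) and 21 a Smad3 promoter peak (33.0%). In the Smad2 TGFβ-1 list, 18 had a peak (47.5%) and 14 a promoter peak (31.6%). Length gave 25.5, 12.8, 19.7 and 13.3 genes for these 4 counts. The sequence near starts gave 15.8 genes for the Smad3 and 14.7 for the Smad2 promoter count.

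**Figure D2:**
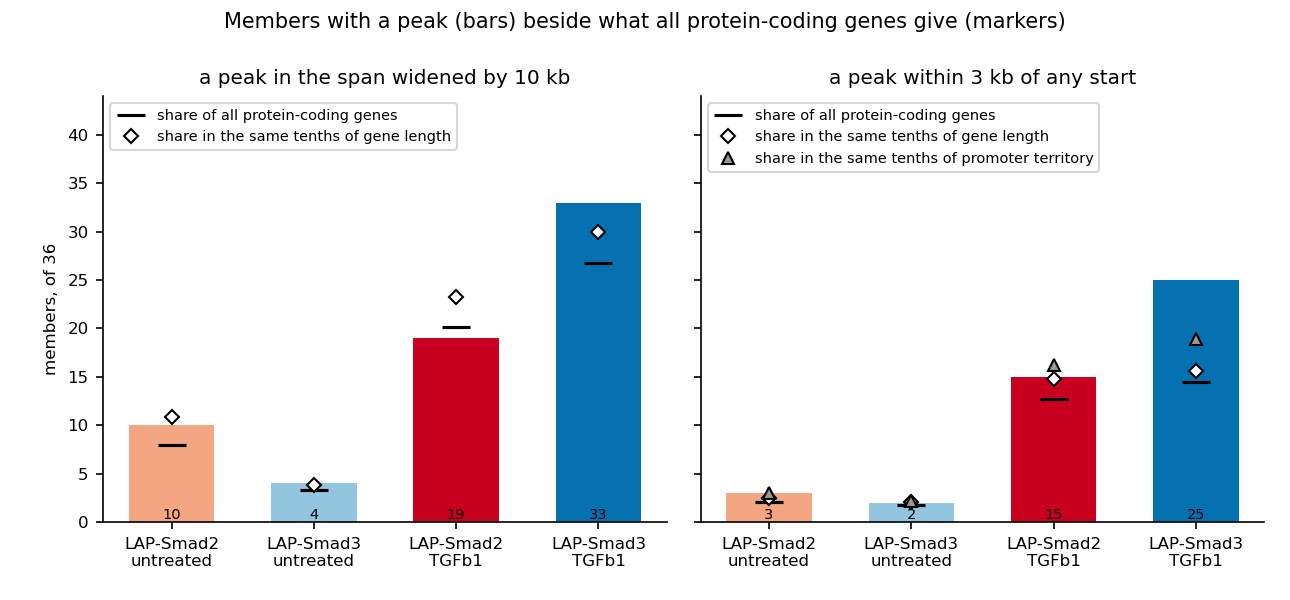
Number of the 36 genes with any peak (left) or a promoter peak (right) in each list as bars, with markers for the number from all protein-coding genes, from genes of like length and, for promoters, from genes with as much sequence within 3 kb of starts. For Smad3 promoter peaks, the bar reaches 25 genes and the latter 2 markers stand at 15.6 and 18.9.

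Several TGFβ-1 peaks lay in sequence that shows what the lists hold at these genes, and 4 windows of laminin genes are given first, chosen like the other windows after their values were seen. Each window is the 200 bp on the centre of a peak, read from hg38 on the plus strand, with the Smad box in capitals (CAGAC or its reverse complement) and the AP-1 motif likewise (TGANTCA). LAMC3 (chr9:131087430-131087629) and LAMB2 (chr3:49132444-49132643) are shown because peaks of both Smads lay there, LAMA3 (chr18:23872745-23872944) because it holds both motifs beside an internal start, and LAMA1 (chr18:6952870-6953069) because it holds the Smad box 5 times within a repeated unit.
LAMC3 exon, Smad3: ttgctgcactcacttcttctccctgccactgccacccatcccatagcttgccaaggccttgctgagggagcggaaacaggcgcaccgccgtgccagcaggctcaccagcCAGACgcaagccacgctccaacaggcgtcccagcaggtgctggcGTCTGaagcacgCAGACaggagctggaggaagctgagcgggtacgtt
LAMB2 exon, Smad2: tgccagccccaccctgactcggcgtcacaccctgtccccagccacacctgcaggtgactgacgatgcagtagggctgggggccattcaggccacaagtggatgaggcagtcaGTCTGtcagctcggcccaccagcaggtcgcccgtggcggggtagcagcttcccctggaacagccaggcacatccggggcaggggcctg
LAMA3 intron, Smad3: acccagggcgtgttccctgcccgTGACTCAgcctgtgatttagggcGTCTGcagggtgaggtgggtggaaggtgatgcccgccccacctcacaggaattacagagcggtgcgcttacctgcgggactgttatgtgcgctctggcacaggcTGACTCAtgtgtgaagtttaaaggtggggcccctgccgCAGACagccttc
LAMA1 intron, Smad2: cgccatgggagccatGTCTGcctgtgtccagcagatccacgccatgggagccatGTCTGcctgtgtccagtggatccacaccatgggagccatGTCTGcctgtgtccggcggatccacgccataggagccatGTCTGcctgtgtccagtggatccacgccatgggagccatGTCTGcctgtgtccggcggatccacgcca

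Of the 5 genes with at least 10 Smad3 TGFβ-1 peaks, 4 were laminin genes. All 10 laminin genes had a Smad3 TGFβ-1 peak and 9 had a Smad2 TGFβ-1 peak, with LAMA4 the exception. The shares of all protein-coding genes were 74.3% and 55.9%. Together the laminin genes held 65 Smad3 and 18 Smad2 peaks, or 3.57 and 0.990 per 100 kb, beside 2.86 and 1.28 at all protein-coding genes. Their median span was 104 kb, beside 27.5 kb, and the shares were not matched for length. The 5 alpha chains, which carry the domains that cells bind, held 44 Smad3 peaks with a median of 10 per gene. The 5 beta and gamma chains, which complete the trimer, held 21. In the Smad3 list cut to equal length, 8 of 10 laminin genes still had a peak with tied peaks either left out or kept.

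LAMA5 encodes the alpha chain of the laminins that are widespread in adult basement membranes. The gene (ENSG00000130702.15) spans 59.4 kb on the minus strand at chr20:62307955-62367312 and had 15 Smad3 TGFβ-1 peaks, 18.9 per 100 kb, a count reached by 1.57% of protein-coding genes. No other gene of the 36 had as many. Of these, 12 summits lay within 10 kb of the MANE Select start, 6 upstream and 6 downstream, and none lay between 2031 bp upstream and 1710 bp downstream of it. Fold enrichment over the local background ran from 2.91 to 6.96, the highest 8007 bp downstream of the start in an intron. Only 1 of the 15 windows had a near-identical copy, that of the flank peak with the lowest fold, whose bases repeat at a shift of 70 bp with 99.2% identity. The Smad2 list held 1 peak there, in an intron 20877 bp downstream of the start, with a fold of 3.27. In the Smad3 list cut to equal length, LAMA5 had 5 peaks.

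LAMA3 encodes the alpha chain of the laminin that anchors the epidermis and other epithelia, with long and short forms made from separate starts. The gene spans 267 kb at chr18:23689453-23956222 and had 12 Smad3 TGFβ-1 peaks, 8 in the gene body, 3 at promoters and 1 in the flank. A cluster of summits lay between 165028 and 183419 bp downstream of the MANE Select start, and the last of these was 148 bp upstream of an internal start. Its window, shown above, holds 2 Smad boxes and 2 matches of TGANTCA. The Smad2 list held 3 peaks, 545 bp downstream of the MANE Select start (fold 4.53) and in exons 156974 and 205525 bp downstream, the last with a fold of 5.46, the highest of any Smad2 TGFβ-1 peak at these genes. The closest summits of the 2 lists were 4571 bp apart. LAMA3 kept 8 Smad3 peaks at equal list length with tied peaks left out and 9 with them kept.

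LAMA2 and LAMA1 encode the alpha chains of the laminins of muscle and of early embryonic basement membranes. LAMA2 is the longest of the 36 genes, with 633 kb at chr6:128883138-129516566, and had 10 Smad3 TGFβ-1 peaks, all in introns and none at a promoter, or 1.53 per 100 kb. For 7 of these 10 the window had near-identical copies elsewhere, so that the place of reads there is uncertain. LAMA2 had 2 Smad2 TGFβ-1 peaks, and the closest summits of both Smads were 46 bp apart, 205867 and 205913 bp downstream of the start. The Smad2 window there had 51 alignments in hg38, the most that were listed for any window and so a lower limit. LAMA1 (chr18:6941742-7117797) had 6 Smad3 and 3 Smad2 TGFβ-1 peaks. A Smad2 peak of LAMA1 lay 749 bp downstream of its MANE Select start with a fold of 4.55, and the strongest, with a fold of 5.22, lay in the intronic repeat shown above, whose bases agree at a shift of 78 bp with 95.9% identity. LAMA4, the alpha chain of vessel walls, had 1 Smad3 peak and no Smad2 peak.

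LAMC3 encodes a gamma chain and had 10 Smad3 and 3 Smad2 TGFβ-1 peaks over 85.3 kb (chr9:131009174-131094473). Of the Smad3 peaks, 8 were gene body peaks, 4 had their summit in an exon, none had a near-identical copy, and the fold ran from 3.57 to 5.51. The strongest lay in the exon shown above, where a Smad2 peak (fold 3.82) and the Smad3 peak had summits 101 bp apart and the window held 3 Smad boxes. The 3 Smad2 windows at LAMC3 held 5 boxes and the 10 Smad3 windows held 7. At LAMC1, the gamma chain of most laminins, the only Smad2 peak lay in the exon 345 bp downstream of the MANE Select start (fold 4.22). The only Smad3 peak was 83915 bp away from that peak, in a window with 17 alignments in hg38.

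The beta chain genes LAMB1 and LAMB2 had peaks of both Smads near their MANE Select starts. Smad2 summits lay 87 bp upstream (fold 3.63) and 898 bp downstream (fold 4.69) of the LAMB1 start, and the nearest Smad3 summit was 1710 bp downstream (fold 5.10), 812 bp from the closer Smad2 summit and with no overlap of the peaks. At LAMB2, the Smad2 summit 474 bp downstream (fold 3.87) and the Smad3 summit 598 bp downstream (fold 4.97) were 124 bp apart in overlapping peaks, at the window shown above. LAMB3, the beta chain of the epidermal laminin, had 5 Smad3 peaks, the nearest 129 bp upstream of the MANE Select start (fold 3.86), and 1 Smad2 peak in an exon 7331 bp from the closest Smad3 summit. Of the 65 Smad3 windows at laminin genes, 30 held a Smad box, beside 34.5% of the list. So did 10 of the 18 Smad2 windows, among them the LAMA1 repeat shown above, beside 35.0%. At integrin genes, 25 of 78 Smad3 and 6 of 19 Smad2 windows held a box. These counts were not tested against the lists or each other.

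Among integrin genes, 23 of 26 had a Smad3 TGFβ-1 peak and 10 of 26 a Smad2 TGFβ-1 peak. The shares of all protein-coding genes, not matched for length, were 74.3% and 55.9%. Integrin genes held 78 Smad3 peaks (2.82 per 100 kb, beside 2.86 at all protein-coding genes) and 19 Smad2 peaks (0.688 per 100 kb, beside 1.28). Alpha chain genes made up 16 of the 23 and 5 of the 10, with 48 Smad3 and 9 Smad2 peaks. At equal list length, 10 integrin genes had a Smad3 peak with tied peaks left out and 16 with them kept, so that 6 of them had only tied peaks there.

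The laminin-binding alpha chains ITGA3, ITGA6 and ITGA7 held 13 Smad3 and 4 Smad2 TGFβ-1 peaks, 6.33 and 1.95 per 100 kb. ITGA3, whose product joins ITGB1 to hold epithelial cells on laminin, spans 34.5 kb at chr17:50055968-50090481. It had 7 Smad3 TGFβ-1 peaks, all of them promoter peaks of 1 or another of its starts, and 8.64% of protein-coding genes had as many or more. Smad3 summits lay 146 bp upstream (fold 4.24) and 567 bp downstream (fold 5.68) of its MANE Select start, and a Smad2 summit (fold 4.09) lay between them, 339 bp downstream and 228 bp from the nearer of them. The highest Smad3 fold, 6.20, was 16136 bp downstream of the start in an intron. None of the 3 Smad2 windows at ITGA3 held a Smad box, beside 4 of the 7 Smad3 windows.

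ITGA6 pairs with ITGB4 in hemidesmosomes, the junctions that tie epithelia to laminin. Its Smad2 TGFβ-1 peak (summit 544 bp downstream of the MANE Select start, fold 3.81) and the nearest of its 4 Smad3 peaks (736 bp downstream, fold 4.41) overlapped in the same intron with summits 192 bp apart. Their windows, chr2:172428023-172428222 for Smad2 and chr2:172428277-172428476 for Smad3, are shown because neighbouring sequence differs in composition. The Smad2 window was 76.0% GC with 7 matches of GGCGC and no Smad box, and the Smad3 window was 64.0% GC with 2 matches of GGCGC and 1 Smad box.
ITGA6, Smad2: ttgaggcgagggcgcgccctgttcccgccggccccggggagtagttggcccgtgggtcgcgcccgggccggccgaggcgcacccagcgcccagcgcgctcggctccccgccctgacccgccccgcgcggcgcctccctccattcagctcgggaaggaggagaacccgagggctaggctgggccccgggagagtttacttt
ITGA6, Smad3: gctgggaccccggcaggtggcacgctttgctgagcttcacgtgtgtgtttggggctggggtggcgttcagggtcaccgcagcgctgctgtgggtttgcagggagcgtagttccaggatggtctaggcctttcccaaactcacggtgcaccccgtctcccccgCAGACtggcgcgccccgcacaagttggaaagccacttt
ITGA7, the laminin-binding chain of muscle, had no Smad2 peak and 2 Smad3 promoter peaks near internal starts. They lay 5681 bp (fold 4.37) and 8729 bp (fold 5.52) downstream of the MANE Select start. In the window of the former, the median 16-mer occurred 28331 times in hg38, so that the place of reads there is uncertain.

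The collagen-binding alpha chains ITGA1, ITGA2, ITGA10 and ITGA11 had no Smad2 TGFβ-1 peak, while all 4 had Smad3 TGFβ-1 peaks, 11 in total. ITGA1 had 5 of them and the others 2 each. None lay within 3 kb of a MANE Select start, 9 of the 11 had their summit in an intron, and fold enrichment ran from 3.21 to 5.52. Of the 11 windows, 3 had near-identical copies, and in another, at ITGA1, the median 16-mer occurred 14462 times in hg38. Both peaks of ITGA2, a receptor for collagen on platelets and epithelia, lay in an intron, 28585 and 28973 bp downstream of the start. The Smad2 and Smad3 counts of these 4 genes were not tested against each other. At equal list length 2 of them had a Smad3 peak with tied peaks left out and all 4 with them kept. Over all protein-coding genes, 74.3% had a Smad3 TGFβ-1 peak and 47.0% had peaks of both Smads. Smad3 peaks without Smad2 peaks were thus not particular to these 4 genes.

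The alpha chains that read the RGD sequence of fibronectin and related proteins, ITGA5, ITGA8, ITGAV and ITGA2B, held 6 Smad3 and 2 Smad2 TGFβ-1 peaks. The fibronectin receptor chain ITGA5 and ITGA8 had 2 Smad3 peaks each, and ITGAV, which joins several beta chains, and the platelet chain ITGA2B had 1 each. Both Smad2 peaks belonged to ITGA2B, and the peak in an exon 3600 bp downstream of its MANE Select start had a fold of 4.55. The windows of the ITGAV peak and of 1 of the ITGA8 peaks had near-identical copies. ITGA9, a receptor for tenascin and other ligands, had 4 Smad3 peaks, the highest fold being 6.07 in an intron 31406 bp downstream of the start. In other Smad3 windows of ITGA9, the median 16-mer occurred 11616 and 30745 times in hg38, the latter with 33 alignments. ITGA4, the closest relative of ITGA9, had no Smad3 peak.

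Among the leukocyte alpha chains, ITGAE had the most Smad3 TGFβ-1 peaks, 7, but many of their windows lay in repeated sequence. Near-identical copies were found for 2 of the 7 windows. In other Smad3 windows of ITGAE, the median 16-mer occurred 7262, 31555 and 9108 times in hg38. The place of reads there is uncertain. ITGAE joins ITGB7 on T cells within epithelia, where it binds E-cadherin. Smad3 summits lay 462 bp (fold 5.68) and 2784 bp (fold 4.75) upstream of its MANE Select start. The Smad2 list held 2 peaks farther into the gene, 1 of them overlapping a Smad3 peak with summits 336 bp apart. The window of that Smad3 peak had 32 alignments in hg38. ITGAL had 3 Smad3 peaks and no Smad2 peak. ITGAD had the closest summits of both Smads of any gene here, 24 bp apart downstream of the gene, but both windows had at least 51 alignments in hg38 at 90% identity, so that the place of those reads is uncertain. ITGAX had 2 Smad3 peaks, 1 of them 1413 bp upstream of the MANE Select start with many near-identical copies. ITGAM had no peak in any list.

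The beta chain genes held 30 Smad3 and 10 Smad2 TGFβ-1 peaks, at 7 and 5 of the 8 genes. A window of ITGB2 (chr21:44912876-44913075) is shown because it carries the highest fold enrichment of the Smad3 TGFβ-1 list at any of the 36 genes. It consists of a 35 bp unit repeated without a mismatch. It holds no Smad box.
ITGB2 intron, Smad3: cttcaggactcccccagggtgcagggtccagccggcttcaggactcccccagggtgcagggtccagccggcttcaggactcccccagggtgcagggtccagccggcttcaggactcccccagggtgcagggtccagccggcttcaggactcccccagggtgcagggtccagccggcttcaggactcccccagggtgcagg

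ITGB2, the shared beta chain of leukocyte integrins, spans 46.0 kb on the minus strand at chr21:44885953-44931989. It had 12 Smad3 TGFβ-1 peaks, 9 of them promoter peaks, or 18.2 per 100 kb, and 2.76% of protein-coding genes had as many or more. The repeated window lay 7882 bp downstream of the MANE Select start with a fold of 9.0, a −log10 q of 12.1 and 7 alignments in hg38. Its neighbour 7220 bp downstream, with a fold of 7.47, had no near-identical copy and held a Smad box. ITGB2 also had the most Smad2 peaks of the 36 genes, 4, with folds from 3.30 to 4.20. A Smad2 peak (fold 3.97) and a Smad3 peak (fold 5.38) overlapped with summits 76 bp apart, 1617 and 1693 bp downstream of the start. At equal list length ITGB2 had 5 Smad3 peaks with tied peaks left out and 6 with them kept.

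ITGB1, the beta chain shared by all collagen-binding and most laminin-binding integrins, was the only one of the 36 genes with Smad2 but no Smad3 peak after TGFβ-1. Over all protein-coding genes, 55.9% had a Smad2 TGFβ-1 peak and 47.0% had peaks of both Smads, so that this pattern is not particular to ITGB1. The gene lies on the minus strand at chr10:32887273-33005792. Its 3 Smad2 peaks lay in an exon 386 bp downstream of the MANE Select start (fold 4.39), in an intron 13843 bp downstream (fold 4.91) and 55346 bp upstream (fold 5.39), and the last of these had near-identical copies. A Smad2 peak of ITGB3, the platelet and vessel beta chain, lay 155 bp upstream of its MANE Select start with a fold of 5.28 and a −log10 q of 8.77. Its 3 Smad3 peaks were elsewhere, 9292 bp or more away, with folds of 7.33, 6.86 and 5.57.

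ITGB6 and ITGB8, named above for the release of TGFβ, had Smad3 but no Smad2 peaks after TGFβ-1. Of all protein-coding genes, 74.3% had a Smad3 TGFβ-1 peak and 47.0% had peaks of both Smads. Smad3 peaks without Smad2 peaks were thus not particular to these genes. At equal list length ITGB6 had 3 Smad3 peaks and ITGB8 had 0, with tied peaks left out or kept. In the whole list ITGB8 had 3 Smad3 peaks, of which 2 lay in exons 665 bp (fold 4.54) and 1082 bp (fold 4.19) downstream of its MANE Select start. ITGB6 had 4, none within 3 kb of that start, with a highest fold of 7.47 in a window with at least 51 alignments and folds of 6.55, 6.07 and 2.91 in windows without a copy. ITGB4, the hemidesmosome chain, had 1 Smad3 peak 1019 bp upstream of its start (fold 4.65). ITGB5 had 4 Smad3 peaks and 1 Smad2 peak. The nearest Smad3 summit lay 260 bp upstream of the start with a fold of 2.92. Its −log10 q of 1.44 was the lowest of the Smad3 TGFβ-1 list at these genes. ITGB7, the partner of ITGAE, had 3 Smad3 and 1 Smad2 peaks, and a peak of each overlapped in the upstream flank with summits 232 bp apart.

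**Figure D3:**
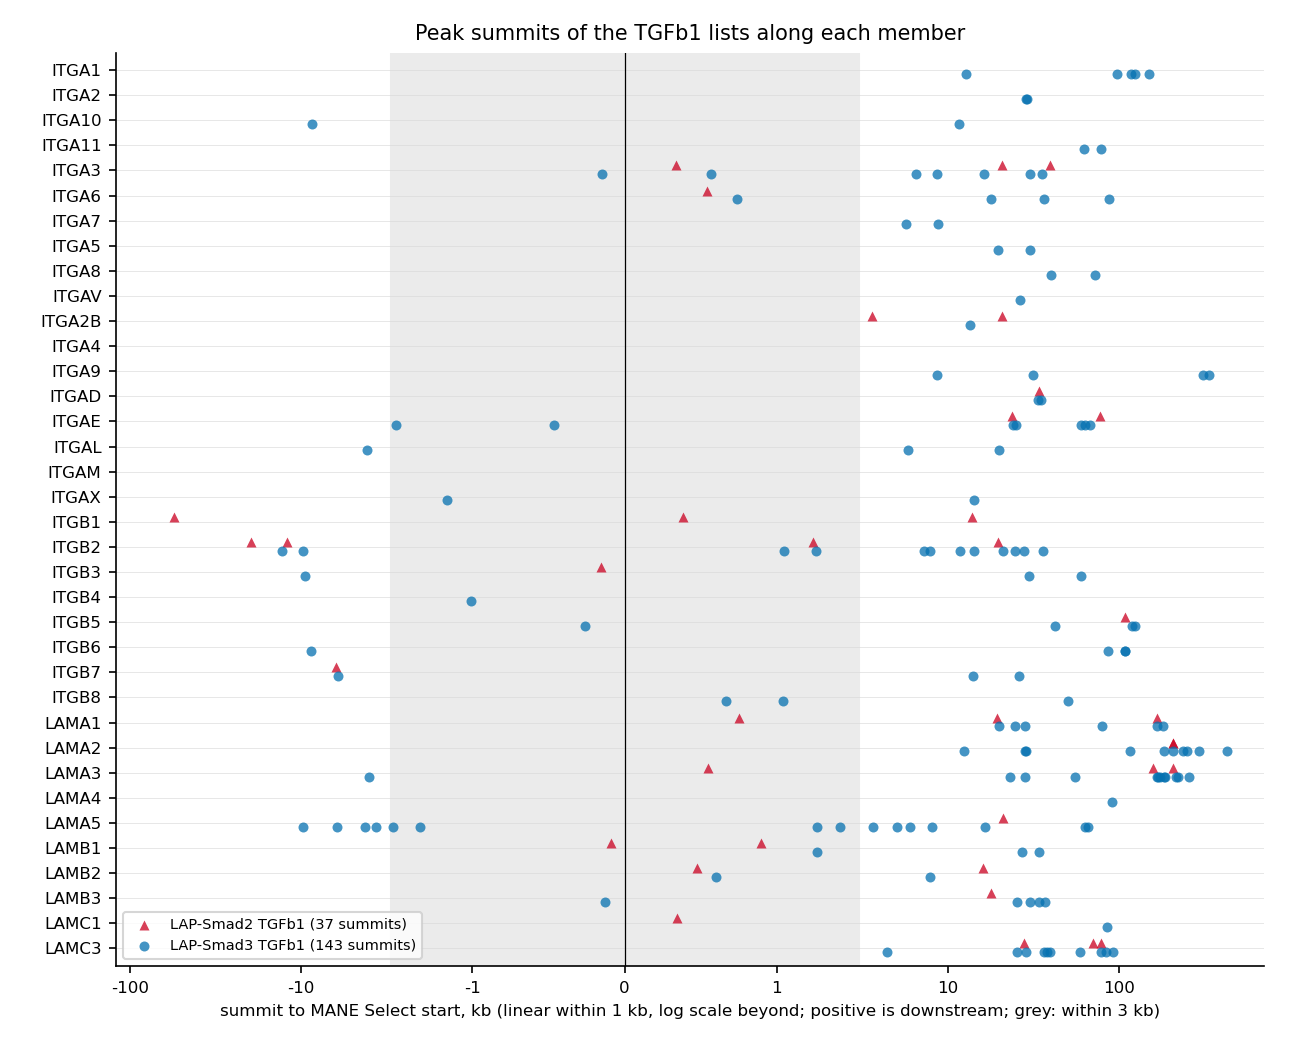
Distance of each TGFβ-1 peak summit from the MANE Select start of its gene (horizontal axis, kb, linear within 1 kb and logarithmic beyond, upstream negative), with 1 line per gene, triangles for Smad2 and circles for Smad3. Within 1 kb of the start lay 10 of 37 Smad2 summits and 8 of 143 Smad3 summits.

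A larger share of Smad2 than of Smad3 summits lay near the MANE Select start, a difference that was not tested. Within 1 kb lay 10 of the 37 Smad2 summits, at 9 genes, and 8 of the 143 Smad3 summits, at 7 genes. Within 3 kb the numbers were 11 and 19. The median distance to that start was 19450 bp for Smad2 and 28065 bp for Smad3 summits, and to the nearest of all annotated starts it was 3089 and 4932 bp. Smad2 summits lay in an exon for 12 peaks, in an intron for 15 and outside the gene for 10, and Smad3 summits for 23, 88 and 32. Distances to the MANE Select start are not given here for the whole lists. Promoter peaks, counted from any annotated start, were 51.4% of Smad2 and 37.8% of Smad3 TGFβ-1 peaks at these genes. At all protein-coding genes they were 49.5% and 33.5%. A larger promoter share for Smad2 was thus not particular to integrin and laminin genes.

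Peaks of both Smads after TGFβ-1 were found at 18 of the 36 genes (50%, beside 47.0% of all protein-coding genes), and promoter peaks of both at 13 (36.1%, beside 18.2%). These shares of all protein-coding genes, and that for overlapping peaks below, were not matched for length or number of starts. The 13 were ITGA2B, ITGA3, ITGA6, ITGAD, ITGAE, ITGB2, ITGB5, LAMA1, LAMA3, LAMB1, LAMB2, LAMC1 and LAMC3. Peaks that overlapped by at least 1 bp were found at 10 genes (27.8%, beside 16.8%), namely ITGA3, ITGA6, ITGAD, ITGAE, ITGB2, ITGB7, LAMA1, LAMA2, LAMB2 and LAMC3. Of the Smad2 peaks at these genes, 10 of 37 overlapped a Smad3 peak (27.0%, 95% interval 15.4 to 43.0), beside 24.5% of the whole Smad2 list. Of the Smad3 peaks, 10 of 143 overlapped a Smad2 peak (6.99%, 3.84 to 12.4), beside 10.6% of the whole Smad3 list. Both intervals of counting error include the share of the whole list. Between the closest summits of the 18 genes the median distance was 478.5 bp, and at 7 of them it was over 1 kb, up to 83915 bp at LAMC1.

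**Figure D4:**
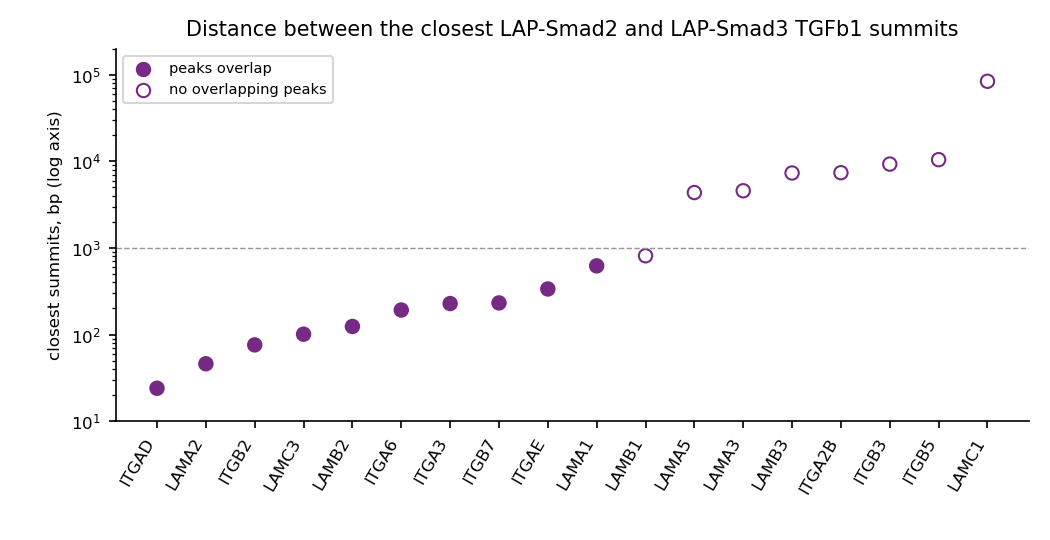
Distance in bp (log axis) between the closest Smad2 and Smad3 summits after TGFβ-1 at the 18 genes with peaks of both, filled where peaks overlap. Distances run from 24 bp at ITGAD to 83915 bp at LAMC1, and peaks overlapped at 10 of the 18 genes.

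Genes with many peaks were found in the longer, Smad3 list. At least 10 Smad3 peaks were found at 5 genes, LAMA5, ITGB2, LAMA3, LAMA2 and LAMC3 (13.9%, beside 4.15% of all protein-coding genes), while no gene of the 36 had more than 4 Smad2 peaks. The 5 genes range from 46.0 to 633 kb, and their counts per 100 kb from 1.53 at LAMA2 and 4.18 at LAMA3 to 9.50 at LAMC3, 18.2 at ITGB2 and 18.9 at LAMA5. The median count per gene was 3 for Smad3, beside 2 for all protein-coding genes, and 1 for Smad2, beside 1. At 2 genes, ITGA4 and ITGAM, no list held a peak (5.56%, beside 15.6% of all protein-coding genes, likewise not matched for length). The values of 13 of the 143 Smad3 peaks, at 12 genes, were the same triple of fold (5.52), −log10 p (7.78) and −log10 q (4.72), which 4108 peaks of the list share.

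In the library labelled LAP-Smad2 untreated, 15 peaks lay at ITGA1, ITGA2B, ITGA3, ITGA11, ITGAX, ITGB1, LAMA1, LAMA2, LAMA3 and LAMC3, and fold enrichment ran from 4.41 to 11.4. The window of the promoter peak of ITGA3 (chr17:50086030-50086229) is shown because it had the lowest GC content of the windows of promoter peaks in that list, 8.5%.
ITGA3 intron, untreated: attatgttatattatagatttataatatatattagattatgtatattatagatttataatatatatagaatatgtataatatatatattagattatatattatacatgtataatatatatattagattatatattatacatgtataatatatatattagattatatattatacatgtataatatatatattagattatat
The ITGA3 window repeats at a shift of 34 bp with 82.5% identity, had a fold of 9.11, and overlapped a Smad3 TGFβ-1 peak with a fold of 4.24. The ITGAX peak, with the highest fold of the 15, overlapped a Smad3 TGFβ-1 peak with a fold of 7.72. At ITGA1, all 3 windows were between 19.5% and 26.5% GC, and the ITGA11 window held no G or C at all.

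Of these 15 peaks, 5 overlapped a Smad2 TGFβ-1 peak (33.3%, beside 33.3% of the whole list labelled LAP-Smad2 untreated) and 6 overlapped a Smad3 TGFβ-1 peak (40%, beside 39.9%). The sites shared with Smad2 TGFβ-1 lay at ITGA2B, ITGB1, LAMA1 and LAMA2, and those shared with Smad3 TGFβ-1 at ITGA1, ITGA3, ITGAX, LAMA1, LAMA2 and LAMA3. In the library labelled LAP-Smad3 untreated, the 4 peaks lay at ITGA2B (fold 3.85), ITGA9 (3.40), ITGB2 (3.53) and LAMB2 (3.58). Those at ITGA2B and ITGB2 overlapped Smad2 TGFβ-1 peaks, beside 71.3% of that whole list, and none overlapped a Smad3 TGFβ-1 peak, beside 19.4%. The ITGA9 peak lay 750 bp downstream of the MANE Select start. The flank of ITGA2B thus had peaks in 3 of the 4 lists, with summits between 20605 and 20722 bp downstream of the MANE Select start.

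Smad2 TGFβ-1 windows at these genes were richer in G and C than those of the list, and Smad3 TGFβ-1 windows were close to it. The mean GC content of the 37 Smad2 TGFβ-1 windows was 69.4% (SD 4.81 over windows), beside 63.8% over the list and 66.6% over peaks at all protein-coding genes. For the 143 Smad3 TGFβ-1 windows it was 58.9% (SD 7.60), beside 58.5% and 58.8%. Smad2 windows at promoters had a mean of 70.7% and other Smad2 windows 68.1%, so that the high GC content was not confined to promoter peaks. In the untreated lists the means were 47.9% (SD 26.5, 15 windows, library labelled LAP-Smad2) and 72.4% (SD 4.70, 4 windows, library labelled LAP-Smad3). Windows with a near-identical copy were 13.5% of the Smad2 TGFβ-1 windows (5.91 to 28.0), beside 37.7% over the list and 26.5% over peaks at all protein-coding genes. They were 21.7% of the Smad3 TGFβ-1 windows (15.7 to 29.1), beside 41.9% and 32.9%. The Smad2 interval includes the share at all protein-coding genes. Windows in repeated sequence, whose median 16-mer occurs at least 100 times in hg38, were 16.2% and 34.3%, beside 40% and 48.2% of every 10th peak of these lists. For repeated sequence, no share at all protein-coding genes was computed.

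**Figure D5:**
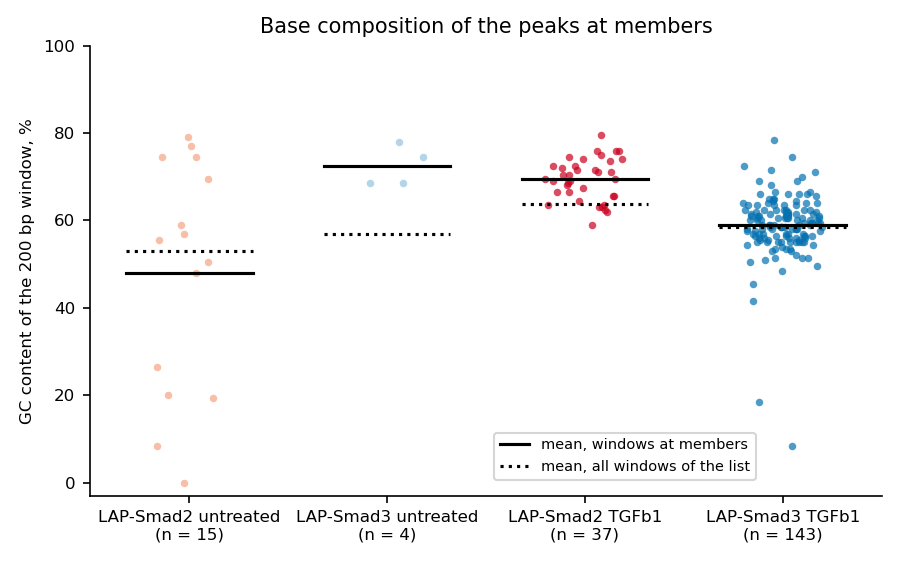
GC content (percent) of the 200 bp windows at the 36 genes in each list, 1 point per window, with the mean at these genes as a solid line and that of the whole list as a dotted line. After TGFβ-1, Smad2 windows lie between 59.0% and 79.5% GC and Smad3 windows between 8.5% and 78.5%, with means of 69.4% and 58.9%.

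The Smad box CAGAC was found on either strand in 16 of 37 Smad2 TGFβ-1 windows (43.2%, 28.7 to 59.1), beside 35.0% of the list, and in 55 of 143 Smad3 TGFβ-1 windows (38.5%, 30.9 to 46.6), beside 34.5%. Both intervals include the share of the list. Within Smad2 windows, the box was found in 5 of 19 promoter windows (26.3%, 11.8 to 48.8) and in 11 of 18 others (61.1%, 38.6 to 79.7). In the untreated lists it was found in 26.7% of 15 windows, beside 25.3%, and in 25.0% of 4 windows, beside 33.7%. The AP-1 motif TGANTCA was found in none of the 37 Smad2 windows, where counting error allows up to 9.41%, beside 1.32% of the list, and in 2.80% of Smad3 windows, beside 2.63%. CANNTG, the E-box, occurred in 65.7% of Smad3 windows (57.6 to 73.0), beside 55.6%, and in 40.5% of Smad2 windows (26.3 to 56.5), beside 51.5%. GGCGC was found in 62.2% of Smad2 windows, beside 56.8%, and in 39.9% of Smad3 windows, beside 43.2%, and AGGTCA in 5.41%, beside 14.0%, and 26.6%, beside 27.3%. The interval of the E-box share of Smad3 windows lay above the share of the list. Its lower end of 57.6% was close to the 56.6% over peaks at all protein-coding genes. It was picked out of several motifs compared in both lists, and counting error does not cover the spread between libraries, so that no difference is read from it. A match says only that the letters are present, all motifs were searched on both strands, and matches of different motifs could overlap.

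Genes that act beside integrins and laminins were counted in the same way, from lists chosen by function. Of 21 genes for cytoplasmic adhesion proteins, which link integrins to actin and to signalling kinases, 20 had a Smad3 and 17 a Smad2 TGFβ-1 peak, with 3.89 and 1.37 peaks per 100 kb. Over all protein-coding genes the shares were 74.3% and 55.9%, and the densities 2.86 and 1.28 per 100 kb. Among the adhesion genes, the kinase SRC had 13 Smad3 and 4 Smad2 peaks, the actin crosslinkers ACTN4 15 and 2 and ACTN1 11 and 3, and talin (TLN1), which binds integrin tails, 7 and 3. Vinculin (VCL) had 1 and 4, the kinase ILK 4 and none, and kindlin (FERMT2) none and 1. Of 12 genes for matrix ligands and basement membrane partners, 10 had a Smad3 and 7 a Smad2 TGFβ-1 peak, with 2.07 and 1.0 per 100 kb. The heparan sulfate proteoglycan HSPG2 had 15 and 3, the dystroglycan gene DAG1 2 and 5, nidogen (NID1), which joins laminin to collagen, none and 1, and osteopontin (SPP1) none in either. Per 100 kb, the adhesion genes thus held more Smad2 peaks than the integrin genes (0.688) and the laminin genes (0.990), at a density close to that of all protein-coding genes. The difference was not tested, with 1 library per list.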

How the data were processed

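MDA-MB-231 cells with LAP-Smad2 or LAP-Smad3 were profiled by ChIP-seq, untreated and after TGFβ-1, with 1 library and 1 deposited peak list per condition. Reads were aligned by the authors to hg38 with Bowtie2 and extended to 200 bp, and MACS2 was run with 0.05 as the highest q-value. Tool versions, control library and filters are not given in the sources used here. The fold enrichment in the deposited lists is a ratio over the local background. The authors wrote p-values and q-values as −log10, and gave the summit as an offset. These scores depend on the depth of each library, which is unknown, and were not compared between lists.

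Peaks were placed on GENCODE release 44 genes of hg38 with Python 3.11.15, pandas 2.3.3, numpy 2.4.6 and pysam 0.24.0, at an overlap of at least 1 bp. Each peak counts for every gene whose widened span it overlaps, and distinct peaks were counted in totals. Numbers expected from length are sums, over the 36 genes, of the share of protein-coding genes in the same of 10 length classes that had a peak. They describe the lists and are no test. The 200 bp around the midpoint of each peak were read from hg38. A window had a near-identical copy if minimap2 2.31-r1302 aligned it more than 1 time with a match of 90% or more of its bases. Wilson intervals were computed from their formula, which was checked against statsmodels 0.14.6. Placement, overlap, motif and interval functions were checked on planted data, and 1708 of 1708 checks passed.

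The genes, gene lists and roles were chosen with earlier results of these data known. Described in depth were the 5 genes with most peaks in each TGFβ-1 list, those with promoter peaks or overlapping peaks of both TGFβ-1 lists, those with untreated peaks, and those with none. Groups follow the sample labels, which for the untreated pair disagree with the names of the deposited lists. Other settings tried were stricter scores, other widenings, promoter definitions and overlaps, and equal list length. The latter cut falls among tied peaks, so that it was made without and with them. The version with tied peaks, the MANE Select start, the sequence near starts and the removal of windows with copies were added after seeing the data. A planned share of soft-masked sequence was replaced by the count of near-identical copies and of repeated 16-mers, since the genome used here is written in capitals throughout. The sequences of some windows are not reported here.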

Additional observations from a re-analysis of the deposited data

Results flagged for a closer look

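At 4 of the 36 genes, the number of peaks after TGFβ-1 minus that in the untreated list was negative in the LAP-Smad2 line and positive in the LAP-Smad3 line, by the labels (11.1%, beside 6.16% of all protein-coding genes). ITGA1, a collagen receptor chain, had 3 untreated and no TGFβ-1 peaks by the labels of LAP-Smad2 (a difference of -3), and none and 5 in the LAP-Smad3 line (a difference of 5). For ITGA11 and for ITGAX the differences were -1 in the LAP-Smad2 line and 2 in the LAP-Smad3 line. LAMA2 had 3 and then 2 peaks in the LAP-Smad2 line (a difference of -1), and none and then 10 in the LAP-Smad3 line (a difference of 10). The difference between the lines was not tested, since each condition has 1 library and the lists differ in length. When the untreated lists were paired by their deposited names instead, opposite differences were found at 2 other genes, ITGA9 and ITGB1 (5.56%, beside 2.67%), and at none of these 4. No effect of TGFβ-1 is read from these differences.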

How the results depend on the processing

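No paired analysis was possible because each condition has 1 library and no result comes from a test. Of 99 values under alternatives, over 19 results, 60 stayed within 1.5 times the reported count or within the interval of the share. The 39 others follow from which peaks or starts each alternative counts. With a −log10 p of at least 10, the Smad3 TGFβ-1 list left 9 genes with a peak, 5 with a promoter peak and 12 peaks, and the Smad2 TGFβ-1 list 6, 4 and 9. Of the untreated lists, that labelled Smad2 left 7 peaks, and that labelled Smad3 left 0 genes, 0 with a promoter peak and 0 peaks. With a widening of 50 kb there were 250 Smad3 and 82 Smad2 TGFβ-1 peaks, and 23 peaks at 16 genes and 9 peaks at 7 genes in the untreated lists labelled Smad2 and Smad3. With no widening the latter had 1 peak at 1 gene. Smad3 TGFβ-1 promoter peaks were found at 16 genes within 1 kb of a start, 16 from starts of coding transcripts, 11 from the start of the gene span and 12 from the MANE Select start. Smad2 TGFβ-1 promoter peaks were found at 9 genes from the start of the gene span. For the untreated list labelled Smad2 the promoter count was 1 within 1 kb and 0 from coding, gene span or MANE Select starts, and for that labelled Smad3 it was 1 from each of these 3 kinds of start. With the Smad3 TGFβ-1 list cut to equal length, 18 genes had a peak, 12 had a promoter peak and 49 peaks remained without tied peaks, and 15 genes had a promoter peak and 62 peaks remained with them. The share of Smad2 TGFβ-1 peaks overlapping Smad3 was 13.5% at a mutual overlap of 50%, 8.11% for summits within 100 bp, and 8.11% with the cut list. The limits that depth sets on these counts are unknown. Shares of all protein-coding genes were not computed for the score cuts, the other widenings or the promoter definitions other than the MANE Select start. The counts under those settings are therefore not compared with all genes, and whether the Smad3 promoter count stands above them there was not tested.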
